A study of Canis lupus familiaris with 7 samples.

Results

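Complex I subunits and their assembly factors were followed in the left ventricle of dogs on a low-salt diet and of control dogs. They were taken as all probe sets whose single gene symbol in the platform annotation starts with NDUF. This gave 80 of the 43035 probe sets on the array, which read 42 of the 15115 genes named by 1 symbol: 65 probe sets of 35 subunit genes, and 15 probe sets of 7 assembly factor genes (NDUFAF). Of the 80, 77 passed the filter on low signal and were tested, 63 for subunits and 14 for assembly factors. The low-salt group holds 4 samples of adult male mongrel dogs fed a diet with 0.5% sodium chloride for 2 weeks (numbered 1 to 4), and the control group 3 samples of male dogs (numbered 1, 3 and 4) whose salt intake the labels do not give. Each sample is 1 Affymetrix canine array of total RNA from the left ventricle. The design gives 10 dogs as fed this diet, and counts 4 low-salt and 3 control dogs in the comparison. No label says outright that each sample is a separate animal, and if it is not, the p-values measure only the spread between these samples, which may be technical. The series title relates the diet to heart disease.

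Complex I, NADH:ubiquinone oxidoreductase, is the entry point of electrons from NADH into the mitochondrial respiratory chain and pumps protons across the inner membrane. Its peripheral arm holds the N module, which oxidises NADH, and the Q module, which passes the electrons to ubiquinone. Its membrane arm pumps the protons. A conserved core does the chemistry, and accessory subunits surround it. The core of the membrane arm is encoded in mitochondrial DNA, and none of those genes is named on this array. Assembly factors help to build the complex and are absent from the finished enzyme. The heart is rich in mitochondria and runs mostly on oxidative metabolism.

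Subunits and assembly factors without a probe set named by 1 symbol were not analysed here. NDUFA4 and its paralog NDUFA4L2 fall under the rule by name, although NDUFA4 is now assigned to cytochrome c oxidase.

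Values are normalized signals on the log2(intensity + 16) scale, which understates changes of dim probe sets, and each difference is low salt minus control. Heart muscle was well represented: the 11 cardiomyocyte markers named on the array passed the filter, and their summed deposited intensity was 83301 to 112442 in low salt and 83846 to 131473 in controls. The GAPDH 3' to 5' signal ratio, a measure of RNA integrity, was 2.27 ± 0.17 (SD, n = 4) in low salt and 2.58 ± 0.18 (SD, n = 3) in controls. The groups did not overlap, and the exact permutation test gave a two-sided p of 0.0571, which no split of these 7 arrays can undercut. A second GAPDH probe set pair gave 17.7 ± 3.5 (SD, n = 4) in low salt and 29.3 ± 10.0 (SD, n = 3) in controls. Its highest ratio was 40.9, on control 1. Arrays carry no read depth, and their number limits the precision. In bulk tissue, fewer cells of a type and less RNA per cell cannot be told apart.

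The transcripts of complex I subunits had small differences between low-salt and control ventricle. Over the 63 tested subunit probe sets the median difference was -0.02, with quartiles of -0.13 and 0.10, against 0.04, -0.25 and 0.31 over all 28616 tested probe sets. Differences above 0 were found for 29 of the 63. The sign of the median turned under other scalings, at 0.060 on the deposited scale (40 of 63 above 0) and 0.49 with equal array medians (56 of 63). The median was 0.02 without low-salt 4 and 0.04 without control 3. None of the 63 passed an adjusted p of 0.05 by limma, which called 0.346% of all tested probe sets. At an unadjusted p under 0.05 stood 1 higher (NDUFAB1) and 1 lower (NDUFB11), where 5.27% of all tested probe sets were higher and 5.78% lower at that level. The study's own threshold also asked for a 2-fold change. On the normalized scale with the offset 0 of the 77 NDUF probe sets reached it, with differences from -0.75 to 0.97. Deposited intensities of dim probe sets can differ more. The dimmest NDUFC1 probe set averaged 15.3 in low salt and 31.5 in controls as deposited. By the methods' t-test 0 of the 63 passed after adjustment, and 0 were higher and 1 lower at an unadjusted p under 0.05. Of all tested probe sets this test passed 4 after adjustment, and put 4.96% higher and 5.08% lower at the unadjusted level. The higher count was 4 without low-salt 1, low-salt 3 or control 3, 2 without control 4, and 0 without low-salt 2, low-salt 4 or control 1. Of all tested probe sets 3.88%, 6.86% and 5.85% were higher in the fits with 4, in the same order. In the fits with 0 these shares were 3.66%, 3.34% and 4.11%. The lower count was 3 without low-salt 3 or control 3 and 2 without low-salt 1 or control 1. In these fits 6.75%, 5.01%, 5.12% and 3.85% of all tested probe sets were lower, in the same order.

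For 58 of the 63 subunit probe sets the 95% interval from the limma fit lay within a 2-fold change in either direction, and for 43 it lay within 1.5-fold. With the brightest probe set of each gene the interval lay within 2-fold for all 35 subunit genes and within 1.5-fold for 28. Over all tested probe sets 44.9% had an interval within 2-fold. The median spread within groups was 0.21 for the subunits and 0.42 for all tested probe sets (pooled SD on the log2 scale). Of the 63 subunit probe sets 61 had a mean signal above the median of all probe sets before the filter. Over tested probe sets above that median the spread was 0.38, and 54.8% had an interval within 2-fold. All these intervals come from the quantile-normalized values. With equal array medians the subunit median was 0.49, with 56 of 63 above 0, and NDUFB7 differed by 0.90. Intervals were not counted under that scaling.

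**Figure D1:**
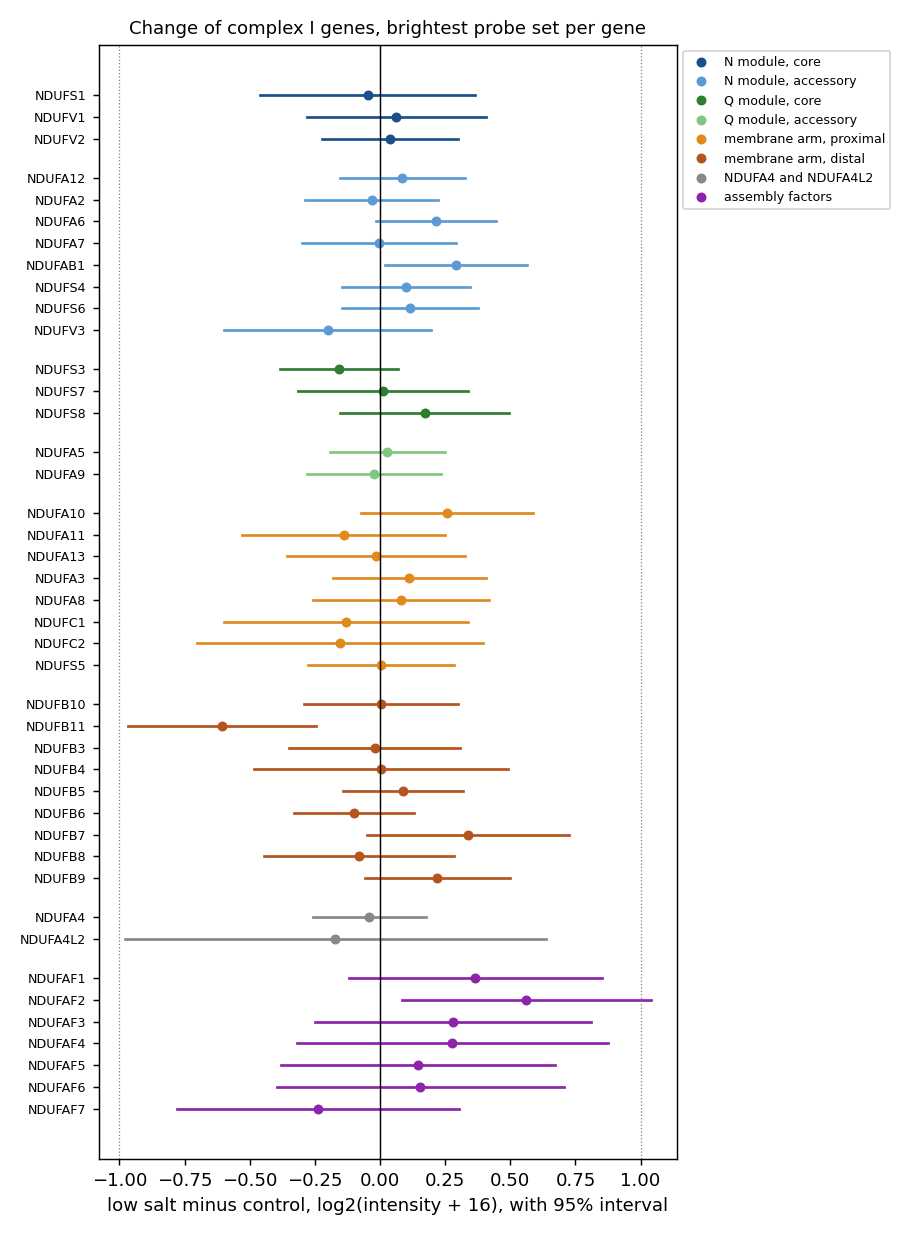
Low salt minus control on the log2(intensity + 16) scale (x axis) for the brightest tested probe set of each of 42 genes, grouped by module, with points for the difference and bars for its 95% interval from the limma fit; dotted lines mark a 2-fold change. Intervals of 33 of the 35 subunit genes span 0, NDUFB11 lies below 0 and NDUFAB1 just above it, and 6 of the 7 assembly factors have a point above 0.

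The core subunits of the N module, where NADH gives up its electrons, had small differences. NDUFV1, which binds NADH and the flavin cofactor, read 10.33, 10.40, 10.24 and 10.12 on low-salt arrays 1 to 4 and 10.32, 10.29 and 10.03 on control arrays 1, 3 and 4. The groups overlapped, and the difference was 0.06 with an interval from -0.28 to 0.41 (limma adjusted p = 0.921). NDUFV2, an iron-sulphur subunit beside it, read 11.96, 11.90, 11.96 and 12.00 in low salt and 11.76, 12.11 and 11.87 in controls. All 4 low-salt values lay between the lowest and the highest control, and the difference was 0.04 (-0.22 to 0.30, adjusted p = 0.938). NDUFS1, which carries further iron-sulphur clusters, read 10.27, 10.59, 9.83 and 10.29 in low salt and 10.48, 10.13 and 10.27 in controls. Its low-salt arrays held both the highest and the lowest value, and it differed by -0.05 (-0.46 to 0.36, adjusted p = 0.953). Less bright NDUFS1 probe sets differed by 0.14, -0.33 and -0.53, the last with an adjusted p of 0.475.

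For the core of the Q module NDUFS3, NDUFS7 and NDUFS8 were measured. NDUFS7, which holds the last iron-sulphur cluster before ubiquinone, read 10.95, 10.95, 11.06 and 10.78 in low salt and 10.67, 11.01 and 11.10 in controls, a difference of 0.01 (-0.32 to 0.34, adjusted p = 0.988). Its low-salt values lay within the range of the controls. NDUFS8, the other iron-sulphur subunit of this module, read 10.71, 11.06, 10.97 and 10.77 in low salt and 10.80, 10.76 and 10.56 in controls. It differed by 0.17 (-0.15 to 0.49, adjusted p = 0.711), and the groups overlapped. NDUFS3, an early building block of the module, read 12.74, 12.78, 12.74 and 12.59 in low salt and 12.81, 13.02 and 12.78 in controls. Every NDUFS3 control lay above every low-salt array, though low-salt 2 and control 4 were equal to 2 decimals. The difference of -0.16 ± 0.11 (SE) did not pass (adjusted p = 0.617), and its less bright probe set differed by 0.01. With array medians set equal the difference of the brighter NDUFS3 probe set turned to 0.28.

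Separation of the groups was counted over the subunits after normalization. NDUFS3 and NDUFB11 were the 2 of 63 whose low-salt values all lay below the controls, and 0 lay all above. As deposited the NDUFS3 groups overlapped, with low-salt 2 at 7626 above control 1 at 7591 and control 4 at 5910. Over all tested probe sets 5.68% lay all below and 5.13% all above.

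Among the accessory subunits of the N module, NDUFAB1 was the member at an unadjusted p under 0.05. It encodes the mitochondrial acyl carrier protein, which also serves lipoic acid synthesis. Its brightest probe set read 13.26, 13.46, 13.31 and 13.80 in low salt and 13.08, 13.30 and 13.13 in controls. Low-salt 4 stood highest, and low-salt 1 lay below control 3, so the groups overlapped. The difference was 0.29 ± 0.13 (SE, adjusted p = 0.425) and was 0.18 without low-salt 4, its lowest value with 1 array left out. The other 4 tested NDUFAB1 probe sets differed by 0.49, 0.25, 0.21 and -0.75, and 1 too dim to be tested by -0.01. The one at -0.75 ranged from 5.40 (low-salt 2) to 7.70 (low-salt 3) in low salt and from 6.54 to 7.83 (control 4) in controls.

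NDUFA6, a small protein that binds the acyl carrier protein, read 13.14, 13.40, 13.13 and 13.40 in low salt and 12.98, 13.18 and 12.99 in controls. It differed by 0.22 ± 0.11 (SE, adjusted p = 0.488), with low-salt 1 and 3 below control 3. Its other probe sets, which are much dimmer on their own scales, differed by -0.24 and -0.22. For NDUFA7 the 2 probe sets differed by 0.00 and 0.26, and the 0.26 came with control 1 at 9.62 while all 6 other arrays lay between 10.26 and 10.51. Without control 1 this second NDUFA7 probe set differed by 0.00. NDUFS4, NDUFS6, NDUFA2, NDUFA12 and NDUFV3 had differences from -0.20 to 0.11 over their 9 probe sets, with adjusted p of at least 0.727. NDUFS4, whose loss in humans causes Leigh syndrome, differed by 0.10 and 0.11 in its 2 probe sets.

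The 3 probe sets for accessory subunits of the Q module had a median spread within groups of 0.12 (pooled SD). NDUFA5 read 13.34, 13.45, 13.26 and 13.14 in low salt and 13.16, 13.37 and 13.29 in controls, a difference of 0.03 (-0.19 to 0.25). NDUFA9, a nucleotide-binding subunit at the junction of the arms, had 2 probe sets that differed by -0.02 and -0.05. In both genes the groups overlapped.

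In the distal membrane arm NDUFB11 stood lower in low salt, with the smallest p of all NDUF probe sets. NDUFB11 is a small accessory subunit, and human variants in it cause histiocytoid cardiomyopathy. Its deposited intensity was 2955, 2738, 3200 and 2384 in low salt and 3409, 5195 and 3519 in controls. After normalization these became 11.42, 11.30, 11.80 and 11.10 in low salt and 11.80, 12.24 and 11.99 in controls. The groups did not overlap, but low-salt 3 and control 1 were equal to 2 decimals. The means were 11.40 ± 0.29 (SD, n = 4) in low salt and 12.01 ± 0.22 (SD, n = 3) in controls.

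The NDUFB11 difference was -0.61 ± 0.17 (SE), with an interval from -0.97 to -0.25, which is 1.52-fold lower on the normalized scale with the offset. It did not pass over all tested probe sets (limma adjusted p = 0.202), and its adjusted p ran from 0.0623 to 0.945 over 18 alternative settings. With 1 array left out the difference stayed between -0.74 (without low-salt 3) and -0.49 (without control 3). On the deposited scale it was -0.50, and with equal array medians -0.07. NDUFB11 is read by 1 probe set, so no other probe set of the gene can be set beside it. Of 6 tested fast skeletal muscle markers 4 had a difference below 0 and 2 above 0, and 2 were lower past the limma adjusted p (TNNI2 at -2.38 and PVALB at -1.50), with summed deposited intensities of 138.4 to 424.1 in low salt and 472.1 to 754.6 in controls. Their part in the NDUFB11 value was not tested.

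**Figure D2:**
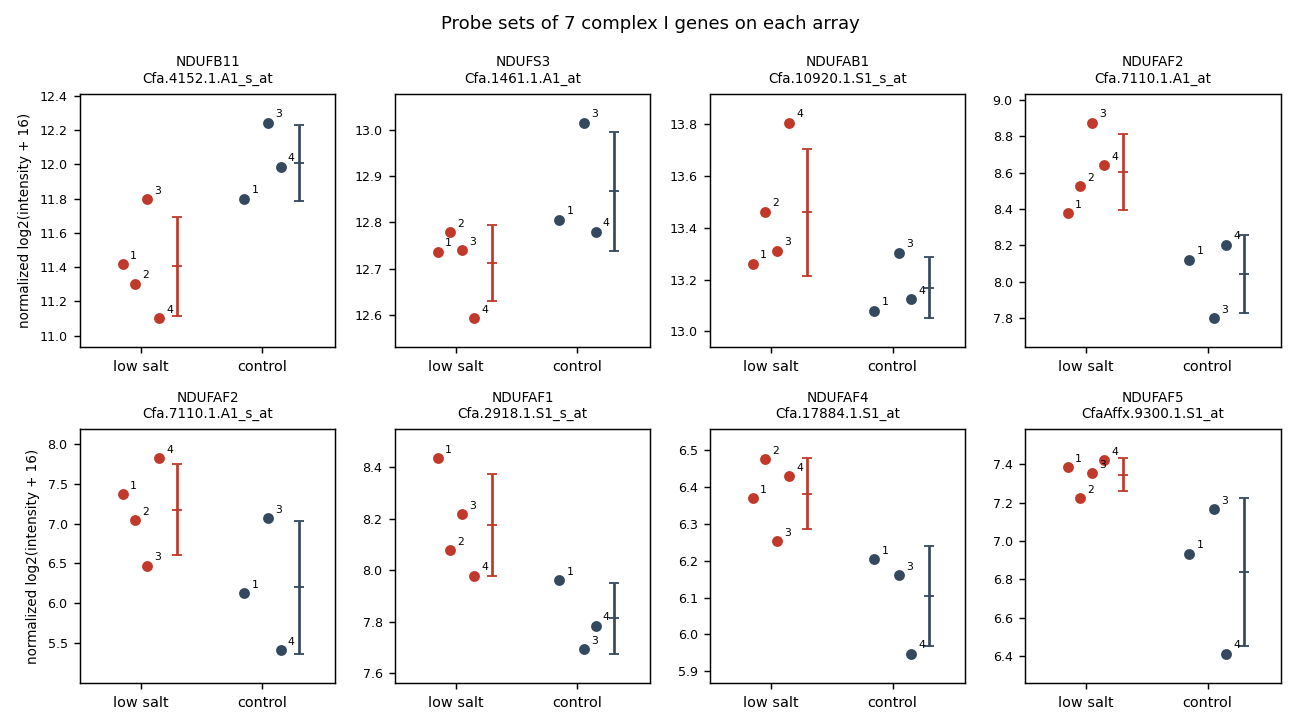
Normalized log2(intensity + 16) signal (y axis) of 8 probe sets of 7 genes in low-salt (red) and control (dark) samples; points are arrays with their sample number, and bars give the mean and SD. NDUFB11 and NDUFS3 lie lower in low salt without overlap, the NDUFAF1, NDUFAF4 and NDUFAF5 probe sets and the first of NDUFAF2 lie higher without overlap, and none passed the adjusted p.

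The other genes of the distal arm had differences on either side of 0. Over the other 8 genes and 13 probe sets the differences ran from -0.25 (NDUFB10) to 0.40 (NDUFB9). NDUFB9, which like NDUFA6 belongs to the family that binds acyl carrier protein, read 10.29, 10.40, 10.17 and 10.54 in low salt and 9.78, 10.33 and 9.76 in controls in its less bright probe set. That probe set differed by 0.40 ± 0.18 (SE, adjusted p = 0.455) and the brighter one by 0.22, and control 3 lay among the low-salt values. NDUFB7 read 10.52, 10.77, 10.64 and 11.15 in low salt and 10.18, 10.57 and 10.56 in controls, a difference of 0.34 ± 0.18 (adjusted p = 0.519), with low-salt 1 below 2 controls. NDUFB3, NDUFB4, NDUFB5, NDUFB6 and NDUFB8 had differences between -0.10 and 0.09, and the brighter NDUFB10 probe set differed by 0.00.

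In the proximal membrane arm 13 probe sets of 8 genes had a median of -0.02 and ran from -0.20 to 0.33. NDUFA10, a subunit of the deoxynucleoside kinase family, read 11.50, 12.11, 11.62 and 11.82 in low salt and 11.65, 11.42 and 11.45 in controls. Low-salt 2 was highest, low-salt 1 and 3 lay below control 1, and the difference was 0.26 ± 0.15 (SE, adjusted p = 0.569), against 0.01 for its other probe set. NDUFC1 had probe sets at 0.33 (adjusted p = 0.549), -0.13 and -0.20, of which the one at -0.13 was the brightest. NDUFS5 differed by -0.16 and 0.01. NDUFA13, also known as GRIM-19, NDUFA8, NDUFA3, NDUFA11 and NDUFC2 had differences from -0.15 to 0.11, each with overlapping groups, and a second NDUFC2 probe set was too dim to be tested.

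NDUFA4 differed by -0.04 and -0.16 in its 2 probe sets, with intervals from -0.26 to 0.18 and from -0.50 to 0.18. NDUFA4L2, which is induced by hypoxia in other tissues, read 5.19, 5.44, 5.46 and 5.39 in low salt and 4.76, 6.01 and 5.86 in controls. All 4 low-salt values lay within the wide range of the controls, and the difference of -0.17 had an interval from -0.98 to 0.64.

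The assembly factors stood somewhat higher in low salt as a group, and none of them passed. Of 14 tested probe sets 12 had a difference above 0, against 53.8% of all tested probe sets, and the median was 0.24 with quartiles of 0.15 and 0.47. Without control 1 the median was 0.14, with 10 of 14 above 0. It was 0.22 with the values as deposited (9 of 15 above 0) and 0.65 with array medians set equal (15 of 15 above 0). At an unadjusted p under 0.05 stood 2 probe sets, both of NDUFAF2 and both higher, where 5.27% of all tested probe sets were higher. This count was 1 without low-salt 1, low-salt 4, control 1 or control 4. By limma 0 of the 14 passed an adjusted p of 0.05. The methods' t-test put 4 of them below an unadjusted p of 0.05, all higher, where it put 4.96% of all tested probe sets, and passed 0 after adjustment. After normalization the low-salt values of 4 of the 14 all exceeded the controls and those of 0 all lay below. Over all tested probe sets these shares were 5.13% and 5.68%. As deposited, of these 4 only the NDUFAF2 probe set had groups without overlap. Low-salt 4 lay below control 1 for NDUFAF1 (229.0 against 243.9) and NDUFAF4 (51.2 against 71.8). For NDUFAF5 low-salt 2 lay below control 3 (122.3 against 125.7). The difference between assembly factors and subunits was not tested.

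NDUFAF2, a late-acting factor and paralog of the subunit NDUFA12, had the probe set with the largest difference among the assembly factors. Its brighter probe set read 8.38, 8.52, 8.87 and 8.64 in low salt and 8.12, 7.80 and 8.20 in controls. Every low-salt value exceeded every control, the means were 8.60 ± 0.21 (SD, n = 4) and 8.04 ± 0.21 (SD, n = 3), and the difference was 0.56 ± 0.22 (SE, limma adjusted p = 0.381). This is 1.48-fold on the normalized scale. The other NDUFAF2 probe set read 7.37, 7.04, 6.47 and 7.82 in low salt and 6.13, 7.07 and 5.41 in controls. Control 3 lay above low-salt 2 and 3, and the difference was 0.97 ± 0.41 (SE, adjusted p = 0.40). It ran from 0.60 without control 4 to 1.41 without control 3. The names of the 2 probe sets share their sequence cluster, so they are not independent readings of the gene.

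NDUFAF1, which works with ECSIT and ACAD9 on the membrane arm, read 8.44, 8.08, 8.22 and 7.98 in low salt and 7.96, 7.69 and 7.78 in controls. The groups did not overlap, low-salt 4 lay just above control 1, and the difference was 0.37 ± 0.23 (SE, adjusted p = 0.583). NDUFAF5, which hydroxylates NDUFS7, had 3 probe sets with differences of 0.15, 0.51 and 0.81 from the brightest to the dimmest. The middle one read 7.38, 7.22, 7.35 and 7.42 in low salt and 6.93, 7.17 and 6.41 in controls, without overlap (adjusted p = 0.516), and differed by 0.31 without control 4. The brightest NDUFAF5 probe set had overlapping groups and turned to -0.01 without low-salt 4, its lowest value with 1 array left out.

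NDUFAF3 and NDUFAF4 bind each other and join the Q module to the early membrane part. NDUFAF3 read 8.16, 8.10, 8.21 and 8.07 in low salt and 7.57, 8.34 and 7.65 in controls. The low-salt values lay close together inside a wide control range, and the difference was 0.28 ± 0.25 (SE, adjusted p = 0.711), from 0.14 without control 1 to 0.52 without control 3. NDUFAF4 read 6.37, 6.48, 6.25 and 6.43 in low salt and 6.20, 6.16 and 5.95 in controls, without overlap, a difference of 0.28 ± 0.28 (SE, adjusted p = 0.752). It was -0.12 with the values as deposited, and its other probe set differed by 0.18.

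NDUFAF6 and NDUFAF7 had differences of either sign. NDUFAF6, a factor needed early in assembly, read 9.21, 9.25, 8.68 and 8.35 in low salt and 8.41, 8.81 and 8.94 in controls, with overlap and a difference of 0.15 (-0.40 to 0.71). It ran from -0.002 without control 1 to 0.32 without low-salt 4. Its other tested probe set differed by -0.11. NDUFAF7, a protein methyltransferase, read 8.92, 8.79, 9.21 and 8.50 in low salt and 8.57, 9.22 and 9.49 in controls, with overlap and a difference of -0.24 (-0.78 to 0.30). It was -0.04 without control 4 and turned to 0.26 with equal array medians. The less bright NDUFAF7 probe sets differed by 0.21 and 0.13.

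Several readings of 1 gene gave a further view of the error. Of the 42 genes 25 had more than 1 tested probe set, and in 11 of these all differences had the same sign. The median distance between the highest and lowest difference within a gene was 0.17. It was 1.24 for NDUFAB1, 0.66 each for NDUFS1 and NDUFAF5 and 0.53 for NDUFC1, against 0.02 for NDUFA9. Among the assembly factors NDUFAF2, NDUFAF4 and NDUFAF5 had probe sets that were all above 0 after normalization. As deposited, both NDUFAF4 probe sets had a lower mean intensity in low salt, at 60.1 against 66.0 and 37.4 against 47.6.

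**Figure D3:**
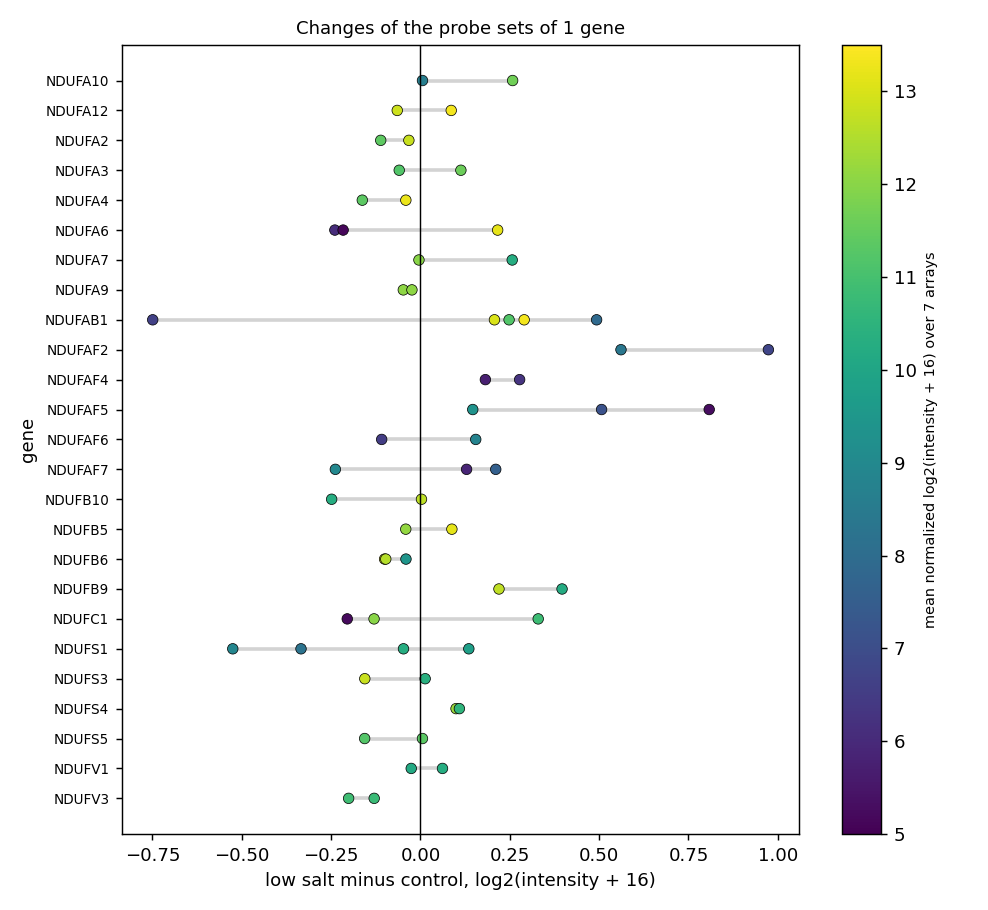
Low salt minus control on the log2(intensity + 16) scale (x axis) for every tested probe set of the 25 genes with more than 1, coloured by the mean signal over 7 arrays; a grey line joins the probe sets of a gene. In 11 genes all points lie on the same side of 0, and NDUFAB1 has the widest distance at 1.24.

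Across arrays the subunits moved within narrow limits in either group. Their median deviation from each probe set's own mean was -0.03, 0.02, 0.03 and -0.05 on low-salt arrays 1 to 4 and -0.08, 0.09 and 0.00 on control arrays 1, 3 and 4. The distance between control 1 and control 3 was thus larger than any distance between low-salt arrays. Low-salt 4 gave the lowest of the low-salt values in 29 of the 63 subunit probe sets, or 46.0%, against 23.2% of all tested probe sets. Low-salt 1 gave the highest in 6, or 9.52%, against 21.6%. NDUFB4 had low-salt values from 11.17 to 11.92, against 10.90 on control 1 and 11.80 and 11.87 on control 3 and 4.

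For the 14 assembly factor probe sets the median deviation was 0.22, 0.18, 0.09 and 0.07 on low-salt arrays 1 to 4. It was -0.29, 0.02 and -0.23 on control arrays 1, 3 and 4, so control 3 lay closer to the low-salt arrays than the other controls did. Macrophage markers were also higher in low salt, with all 8 tested genes above 0, against 53.8% of all tested probe sets. Their median was 0.33, with summed deposited intensities of 1998 to 2641 in low salt and 1513 to 2188 in controls. Of these 8, 2 were higher at an unadjusted limma p under 0.05, against 5.27% of all tested probe sets. By the adjusted p 0 of the 8 passed. The adipocyte list had a larger median of 0.55, with 2 of 3 tested genes above 0. Medians of the remaining marker lists ran from -0.48 to 0.01. The part of these cell types in the assembly factor values was not tested, nor was that of the GAPDH ratio.

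**Figure D4:**
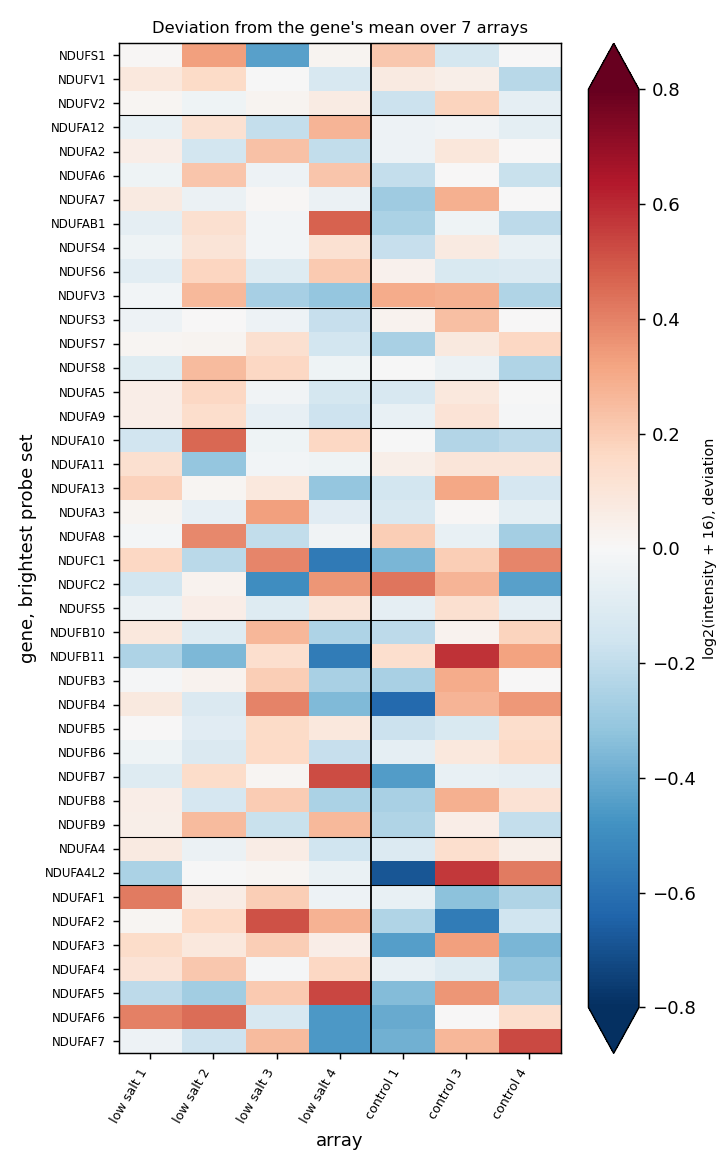
Deviation of the brightest tested probe set of each gene from its mean over 7 arrays (colour, log2 scale) with genes in rows by module and arrays in columns, low salt left of the black line and controls right. Most subunit rows are pale on all arrays, NDUFB11 is blue on low-salt 1, 2 and 4 and red on control 3 and 4, and NDUFB4 is blue on control 1.

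The other genes around complex I gave a mixed picture. Of 13 further assembly factors without the NDUF name, 12 were on the array and 11 were tested by their brightest probe set. Of these 11, 2 had an unadjusted p under 0.05 in the higher direction and 0 in the lower, against 5.27% and 5.78% of all tested probe sets, 0 passed the limma adjusted p, and the median was -0.02. TIMMDC1, which helps to build the membrane arm, differed by 0.73 ± 0.32 (SE, adjusted p = 0.422) and COA1 by 0.39 ± 0.16 (adjusted p = 0.40), both without overlap. NUBPL, which delivers iron-sulphur clusters to the complex, differed by 0.70 ± 0.34 (adjusted p = 0.467), also without overlap. ECSIT and ACAD9, the partners of NDUFAF1, differed by -0.02 and -0.05, and a dimmer ACAD9 probe set by 1.44 (adjusted p = 0.134).

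Regulators of mitochondrial biogenesis, which drive these genes in many tissues, were tested for 12 of 15 listed genes. An unadjusted p under 0.05 was found for 2 higher and 1 lower, against 5.27% and 5.78% of all tested probe sets, and 0 passed the limma adjusted p. The lower one was the coactivator PPARGC1A at -0.74. The higher ones were YY1 at 0.32 ± 0.13 (SE, adjusted p = 0.399) and GABPB1, a subunit of nuclear respiratory factor 2, at 0.88 ± 0.39 (adjusted p = 0.432). The other subunit of that factor, GABPA, differed by 0.25, and TFAM, the packaging and transcription factor of mitochondrial DNA, by -0.19.

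The scaling of the arrays also moved the median of all tested probe sets, to -0.18 on the deposited scale and 0.26 with equal medians, and moved that of the subunits upward under both. Relative to that shift the subunits lay at -0.06 after quantile normalization, and at 0.24 under either of the other scalings. The assembly factors lay at 0.21 and 0.39 in the same terms. The deposited and the equal-median scaling differ only by a constant per array. Their values relative to all tested probe sets are therefore the same by construction, and are not separate readings. Both after quantile normalization and without it, the assembly factor median was above that of the subunits. No NDUF probe set passed the limma adjusted p under any of the 3 scalings.

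**Figure D5:**
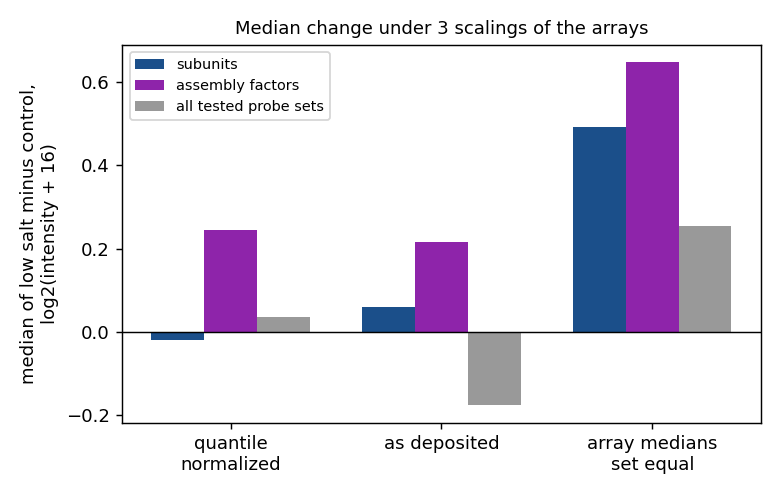
Median of low salt minus control on the log2(intensity + 16) scale (y axis) for subunits, assembly factors and all tested probe sets, under 3 ways of scaling the arrays. The subunit median was -0.02, 0.060 and 0.49, the assembly factor median 0.24, 0.22 and 0.65, and that of all tested probe sets 0.04, -0.18 and 0.26.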

How the data were processed

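The authors deposited 1 linear intensity per probe set and array, made with GCOS, the array maker's software, per the submitters' processing notes, whose version and summary method were not given in the sources used. Every array had been scaled to a 2% trimmed mean of about 150.1, yet log2 medians of arrays lay up to 0.93 apart. They were 5.24, 5.23, 5.91 and 5.14 on low-salt arrays 1 to 4 and 5.80, 5.57 and 6.07 on control arrays 1, 3 and 4. Low-salt 1, 2 and 4 thus lay below every control, and low-salt 3 and control 4 were highest. From the deposited intensities log2(intensity + 16) was computed without the 111 control probe sets and quantile normalized, since medians differed by over 0.25. The third of the 42924 probe sets with the lowest mean was left out, and 28616 were tested for low salt against control in limma 3.58.1 (R 4.3.3, mean-variance trend, no covariates), with Benjamini-Hochberg adjustment over all of them. Genes were named from the platform annotation, and for 77 of the 80 NDUF probe sets the gene number had the same symbol in the UU_Cfam_GSD_1.0 gene table. The brightest probe set is that of highest mean over 7 arrays. The members and lists were chosen with earlier results of these data known. Named are NDUF probe sets at an unadjusted p under 0.05 or without overlap, the core subunits, all NDUFAF genes, up to 3 genes of smallest p per other module, and from other lists up to 3 genes of smallest p. ECSIT, ACAD9, GABPA, TFAM, NDUFB4 and NDUFC2 were added after their values were seen. The marker lists cover 10 cell types; of these the fast skeletal list alone had calls, with 2 genes (TNNI2 and PVALB) lower. The procedure was tested on simulated data, where it called 67% of changes of 2 on the log2 scale and 97% of changes of 4. Smaller changes, such as those of the NDUF probe sets, were not simulated. Sequences are not analysed here.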

Additional observations from a re-analysis of the deposited data

How the results depend on the processing

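No NDUF probe set passed the adjusted p under any alternative. Subunits higher at an unadjusted p under 0.05 numbered 1, against 2 with an offset of 1, 3 on the deposited scale and 6 with equal array medians (2.70% and 9.92% of all tested probe sets were higher under these scalings). They numbered 0 with array weights, without the mean-variance trend, with the replicate block, by the methods' t-test and with the mean of a gene's probe sets, and 0 to 4 with 1 array left out. Subunits lower numbered 1, against 0 with equal medians and 1 to 3 with 1 array left out. With 1 array left out 3.34% to 6.86% of all tested probe sets were higher and 3.85% to 6.75% lower. With equal medians 3.81% were lower. Assembly factors higher numbered 2, against 1 on the deposited scale, without the trend, with the brightest probe set or the mean per gene, 0 with the replicate block, 3 with equal medians, 4 by the methods' t-test, and 1 to 2 with 1 array left out. The subunit median of -0.02 became 0.060 on the deposited scale and 0.49 with equal medians, and ran from -0.06 to 0.04 with 1 array left out; the assembly factor median of 0.24 became 0.65 with equal medians and ran from 0.14 to 0.31. Without low-salt 3 and control 4 together, 7.46% of all tested probe sets were lower and 7.66% higher. In this setting, an alternative chosen after seeing the data, 2 subunits were lower and 1 assembly factor higher. The cause was not tested. Over all tested probe sets limma passed 99, and the count ran from 4 by the methods' t-test to 377 without low-salt 3 and control 4. Of 28 named probe sets 14 kept their sign in all 18 settings. Same-numbered samples of the groups did not deviate together (correlations over probe sets of 0.07, -0.26 and -0.18), so the numbers were not taken as pairs. With the replicate block 0 NDUF probe sets passed the adjusted p, as without it, and 27 of all tested probe sets did. The GAPDH ratio kept its direction in the second probe set pair (a difference of -11.6, without overlap) and with each array left out.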

Other observations

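The arrays low-salt 3 and control 4 deviated from their group means together, with a correlation of 0.43 over all tested probe sets, the highest of the 12 pairs across groups (a description across probe sets, which are not independent). Among subunits NDUFC2, chosen after its values were seen, read 8.65 on low-salt 3 and 8.71 on control 4, and lay higher on all other arrays, up to 9.57 on control 1. NDUFC1, also chosen after its values were seen, read 12.39 on both arrays in its brightest probe set. On low-salt 4 that probe set gave the lowest low-salt value of NDUFC1, at 11.43, while another probe set of the gene gave its highest, at 11.33.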
